A study of Mus musculus with 6 samples.

Results

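The killing genes of cytotoxic lymphocytes were followed in sorted mouse leukemia cells: the granzymes Gzma, Gzmb, Gzmc, Gzmk and Gzmm, the pore former Prf1, the granule genes Nkg7 and Srgn, the death ligand Fasl and the cytokine gene Ifng. These 10 genes of the 23284 listed were selected on their gene symbol and on their measured values in cytarabine-treated against control mice, so that difference is given for them as a description with no test. All 10 were listed in the data, 8 had a value above 0 in at least 1 library, and 5 (Gzma, Gzmb, Prf1, Nkg7 and Srgn) reached the mean of 1 FPKM (mapped fragments scaled to the length of the transcript and the size of the library) that was required of genes entering the test across all genes. Gzmb and Prf1 had control means under 1 FPKM and reached that mean only through the cytarabine libraries, so counts among these 5 genes are not read as support for a direction.

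Cytotoxic T cells and NK cells store granzymes and perforin in secretory granules, bound to the proteoglycan serglycin, which Srgn encodes. When the granules are released toward a target cell, perforin opens its membrane, and the granzymes, which are serine proteases, enter and cleave proteins that lead to its death. Fas ligand triggers death through the receptor Fas without granules, and interferon gamma is the cytokine that these lymphocytes secrete.

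C1498, a mouse line of acute myeloid leukemia (AML), was the line used. Its version carried EGFP from a retroviral vector and had been grown from 1 cell. The cells had been injected into a vein of female C57BL/6 J mice, as a rule aged 8 to 10 weeks, and were sorted from the bone marrow on day 21 as GFP-positive, CD49b-positive cells. There were 3 mice given cytarabine, a nucleoside analogue, and 3 controls, recorded as given PBS in the sample labels and as untreated in the methods, with 1 library for each mouse. The host mice kept their own blood cells, and all groups carried the same EGFP clone. The comparison is of cells sorted as leukemia after chemotherapy with those of mice that had none. The libraries also held transcripts typical of other cells, such as neutrophils, colon and heart, at levels that differed between libraries.

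The depth behind the values was inferred from the steps between low FPKM values, and lay between 11480000 and 18850000 reads per library. Itga2, which encodes the CD49b used in the sort, had a mean log2(FPKM + 1) of 3.16 with cytarabine and 3.72 in controls, and Ptprc, the CD45 antigen of leukocytes, 8.34 and 8.47. EGFP was not analysed here. The libraries differed in colon transcripts in a way that crossed the groups. Zg16, a gene of colon goblet cells, ranged from 1049 to 2207 FPKM over control 1, cytarabine 2 and cytarabine 3, against 9.49 to 137 FPKM over control 2, control 3 and cytarabine 1. Differences are therefore also given within each side of this division, where 1 library always stands against 2. On both sides the cytarabine libraries held more Zg16 than the controls. The values were 137 FPKM against 9.58 and 9.49 FPKM, and 1948 and 2207 FPKM against 1049 FPKM. The division therefore does not even out colon transcript between the groups. A low value of a cytotoxic gene in bulk RNA can come from few cells of a type or from little RNA per cell, which cannot be told apart.

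The granzymes differ in what they cleave but share the residues around the catalytic serine. To show how alike the members are at this site, the coding stretch at that serine is given 5′ to 3′, read from the GENCODE M21 transcripts, with the codons of Gly-Asp-Ser-Gly in capitals.
Gzma: tcctgcaatGGGGATTCTGGCagccctctg
Gzmb: tcctttcggGGGGATTCTGGAggcccgctt
Gzmk: tcctgcaagGGTGACTCTGGTggccctttg
Gzmm: ccctgcaagGGTGACTCTGGAgggcccctg
The serine is codon 211 in Gzma, 203 in Gzmb, 213 in Gzmk and 210 in Gzmm. No such match was found in Gzmc. Over the coding sequence, Gzmb and Gzmc were 77.9% identical, Gzma and Gzmk 64.5%, and Gzma and Gzmb 64.3%. None of the 75-base windows of the transcripts of these 5 granzymes was found in another gene. In Srgn, a coding stretch from codon 90 to codon 109 holds 10 serine-glycine pairs in a row, the attachment sites of the sugar chains that hold granule proteins, and it is shown in full because it defines the proteoglycan.
Srgn: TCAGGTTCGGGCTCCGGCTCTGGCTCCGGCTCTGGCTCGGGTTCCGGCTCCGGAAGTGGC

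Granzyme A, a tryptase and the most abundant granzyme here, is encoded by Gzma (ENSMUSG00000023132.8) on the minus strand of chromosome 13, from 113093825 to 113100981 in GRCm38. Cytarabine 1, 2 and 3 measured 7.49, 3.85 and 2.56 FPKM, against 1.04, 1.56 and 1.03 FPKM for control 1, 2 and 3. All 3 cytarabine libraries were above all 3 controls, with cytarabine 1 the highest. The means were 4.63 ± 2.56 FPKM (SD, n = 3) with cytarabine and 1.21 ± 0.30 FPKM (SD, n = 3) in controls, a ratio of 3.82. On the log2(FPKM + 1) scale, which understates differences of low genes, the difference was 1.26 (standard error 0.34). The values rested on 66, 49 and 23 inferred reads with cytarabine and on 10, 13 and 8 in controls. Counting error alone gave 95% intervals (exact Poisson) from 5.77 to 9.49, from 2.83 to 5.06 and from 1.62 to 3.83 FPKM for the cytarabine libraries. The highest upper bound among controls was 2.66 FPKM, so cytarabine 3 overlapped the controls within counting error and the other cytarabine libraries did not. Without cytarabine 1 the log2 difference was 0.92. It was 1.90 among the libraries with little colon transcript and 1.02 among those with much of it.

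Granzyme B, which cuts after aspartate and activates caspases, is encoded by Gzmb on the minus strand of chromosome 14, from 56258838 to 56262260. It was at 2.71, 0.697 and 2.28 FPKM with cytarabine, was listed at 0 in control 1, and was at 0.665 and 0.358 FPKM in control 2 and 3. The groups did not overlap, but cytarabine 2 and control 2 stood next to each other. Behind these values were 44, 16 and 37 inferred reads with cytarabine and 0, 10 and 5 in controls. The counting intervals of cytarabine 2, from 0.392 to 1.11 FPKM, and of control 2, from 0.315 to 1.21 FPKM, overlapped. The log2 difference was 1.06 (standard error 0.41), between 0.85 and 1.41 when 1 library was left out, and 1.30 and 1.24 among the libraries with little and with much colon transcript.

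Perforin is encoded by Prf1 on the plus strand of chromosome 10, from 61297833 to 61304680. It measured 3.79, 1.20 and 1.25 FPKM after cytarabine against 0.454, 1.00 and 0.702 FPKM in controls. The groups did not overlap, and cytarabine 1 stood far above the other 5 libraries, which lay close together. The means were 2.08 ± 1.48 FPKM (SD, n = 3) and 0.719 ± 0.274 FPKM (SD, n = 3), a ratio of 2.89, and the log2 difference was 0.75 (standard error 0.38). Without cytarabine 1 it was 0.38. The counting interval of cytarabine 1, from 3.02 to 4.66 FPKM on 87 inferred reads, lay clear of the controls, whose highest upper bound was 1.53 FPKM. The lower bounds of cytarabine 2 and 3, at 0.857 and 0.827 FPKM, lay under it. The difference was 1.38 among the libraries with little colon transcript and 0.61 among those with much of it.

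**Figure D1:**
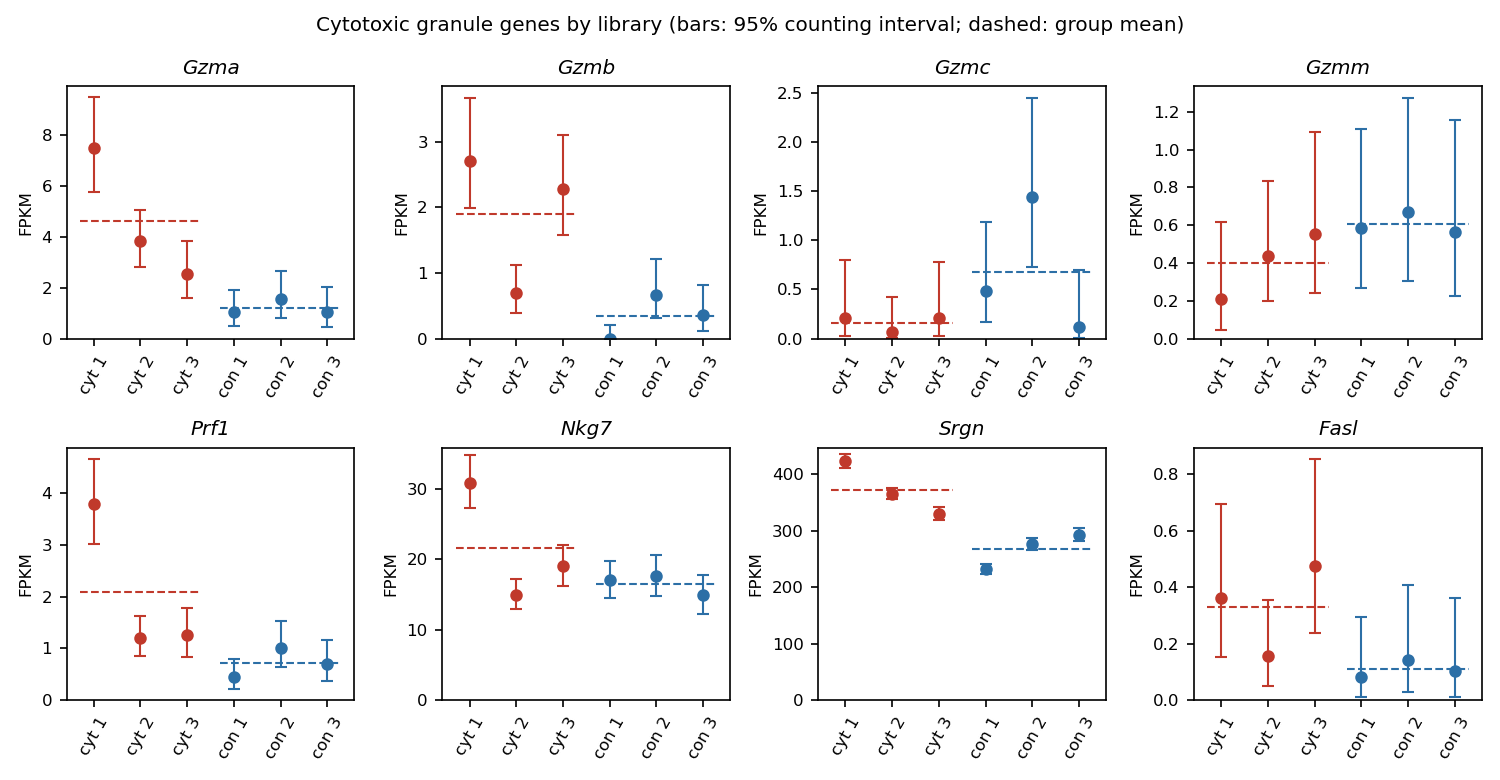
FPKM of the 8 members with a value above 0 in each of the 6 libraries (cyt, cytarabine; con, control), with exact Poisson 95% counting intervals as bars and group means as dashed lines. All cytarabine points of Gzma, Gzmb, Prf1, Srgn and Fasl lay above their control points. Some bars overlapped between groups for every member except Srgn.

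The granule matrix genes stood at other levels. Srgn, on the minus strand of chromosome 10 from 62493833 to 62527451, measured 424, 366 and 329.9 FPKM after cytarabine against 232, 276 and 293 FPKM in controls. The groups did not overlap, and each value rested on 2432 to 5093 inferred reads, so the counting intervals did not overlap between groups either. The means were 373 ± 47.3 FPKM (SD, n = 3) and 267 ± 31.3 FPKM (SD, n = 3), a ratio of 1.40. The log2 difference was 0.48 (standard error 0.13), between 0.38 and 0.56 with 1 library left out, and was 0.57 among the libraries with little and 0.58 among those with much colon transcript. Srgn is also used by mast cells, neutrophils and other blood cells, and it ranked between 208 and 365 of the 23284 genes by FPKM in the 6 libraries.

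Nkg7, a membrane protein of the cytolytic granule that is needed for its release, lies on the plus strand of chromosome 7 from 43437073 to 43438249. It measured 30.8, 15.0 and 18.97 FPKM after cytarabine against 17.0, 17.5 and 14.9 FPKM in controls. The groups overlapped, with cytarabine 2 level with control 3 and cytarabine 1 alone above the rest. The means were 21.6 ± 8.23 FPKM (SD, n = 3) and 16.5 ± 1.41 FPKM (SD, n = 3). The log2 difference of 0.31 (standard error 0.25) was 0.04 without cytarabine 1. It was 0.89 among the libraries with little colon transcript and -0.011 among those with much of it.

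Fas ligand, encoded by Fasl on the minus strand of chromosome 1 from 161780689 to 161788495, was close to the limit of detection. It measured 0.362, 0.157 and 0.475 FPKM after cytarabine against 0.0832, 0.144 and 0.103 FPKM in controls. The groups did not overlap, but these were 8, 5 and 11 inferred reads against 2, 3 and 2. The counting intervals of cytarabine 1, 2 and 3 had lower bounds of 0.153, 0.0496 and 0.238 FPKM. The lowest upper bound among controls was 0.293 FPKM, so no cytarabine library could be separated from any control at this depth. The log2 difference was 0.26 (standard error 0.097), 0.28 and 0.27 on the sides with little and with much colon transcript.

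The remaining granzymes did not share the pattern of Gzma and Gzmb. Gzmc, in the granzyme cluster of chromosome 14 next to Gzmb from 56231441 to 56234656, measured 0.209, 0.0725 and 0.205 FPKM after cytarabine against 0.482, 1.44 and 0.119 FPKM in controls. The groups overlapped, control 2 was the highest with 12 inferred reads, and the log2 difference was -0.46 (standard error 0.29), or -0.15 without control 2 and -0.71 without control 3, and -0.45 and -0.38 on the sides with little and with much colon transcript. Gzmm, which cuts after methionine or leucine and lies on chromosome 10 from 79689020 to 79695261, measured 0.212, 0.439 and 0.553 FPKM after cytarabine against 0.584, 0.671 and 0.561 FPKM in controls. Its groups did not overlap in FPKM, with cytarabine lower, yet the inferred reads were 3, 9 and 8 against 9, 9 and 7, and all 6 counting intervals overlapped. Its log2 difference was -0.20 (standard error 0.11), or -0.10 without cytarabine 1, and it was -0.41 among the libraries with little colon transcript and -0.08 among those with much of it. Gzmk, on chromosome 13 from 113171608 to 113225908, and Ifng, on chromosome 10 from 118441046 to 118445892, were listed at 0 in all 6 libraries. At the inferred depths, 3 reads would have given 0.192 to 0.315 FPKM for Gzmk and 0.158 to 0.259 FPKM for Ifng. Vamp7, a membrane fusion gene of most cells, was listed at 0 in every library too, so a listed 0 is not taken as absence. Of the Ifng transcript, 10.1% of the 75-base windows also occur in Gm49751.

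**Figure D2:**
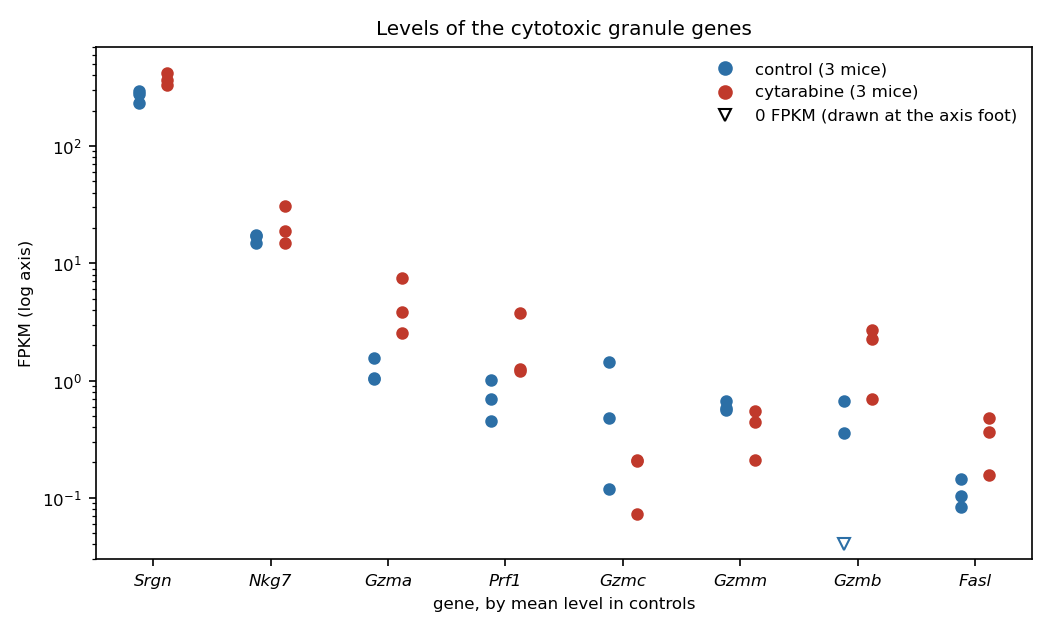
FPKM of the 8 members on a log axis, ordered by their mean in controls, with 1 point per mouse and an open triangle for the library listed at 0. Srgn was above 200 FPKM and Nkg7 above 10 FPKM in all libraries, while the granzymes, Prf1 and Fasl lay under 10 FPKM.

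FPKM values are per length of transcript, so the levels of the members can be set in order. In controls, Srgn was the highest, followed by Nkg7, Gzma and Prf1. Gzma, from 1.03 to 1.56 FPKM, did not overlap Prf1, whose highest control was at 1.00 FPKM, but their counting intervals did overlap, and control 2 of Gzmc lay within the range of Gzma. Prf1, Gzmc, Gzmm and Gzmb could not be ordered among themselves, since their ranges over the control mice overlapped. Fasl was the lowest and overlapped only the ranges of Gzmb and Gzmc. With cytarabine the order was Srgn, Nkg7, Gzma, Prf1 and Gzmb, with overlap among the last 3 of these. Gzmb, whose lowest cytarabine value was 0.697 FPKM, was there above Gzmm, whose highest was 0.553 FPKM. Gzmm, Fasl and Gzmc were the lowest and could not be ordered by their ranges, apart from Gzmm lying just above Gzmc.

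Side by side, the log2 difference was above 0 for 6 of the 8 members with a value and below 0 for 2. The groups did not overlap for 5 members higher with cytarabine and for 1 member lower. Among all 18178 genes with a value, 9.18% were higher and 9.02% lower without overlap. The median log2 difference of the 8 members was 0.40, against 0.02 over those 18178 genes and -0.0015 over the 11703 genes whose mean reached 1 FPKM. As the members were selected on this contrast, these counts restate the selection. Among the libraries with little colon transcript 6 of the 8 were above 0, and among those with much of it 5 were, Nkg7 being the member that differed. Cytarabine 1 was the highest of the 6 libraries for Gzma, Gzmb, Prf1, Nkg7 and Srgn, and cytarabine 3 for Fasl. The SD of the cytarabine group was larger than that of the controls for 7 of the 8 members with a value, the exception being Gzmc.

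**Figure D3:**
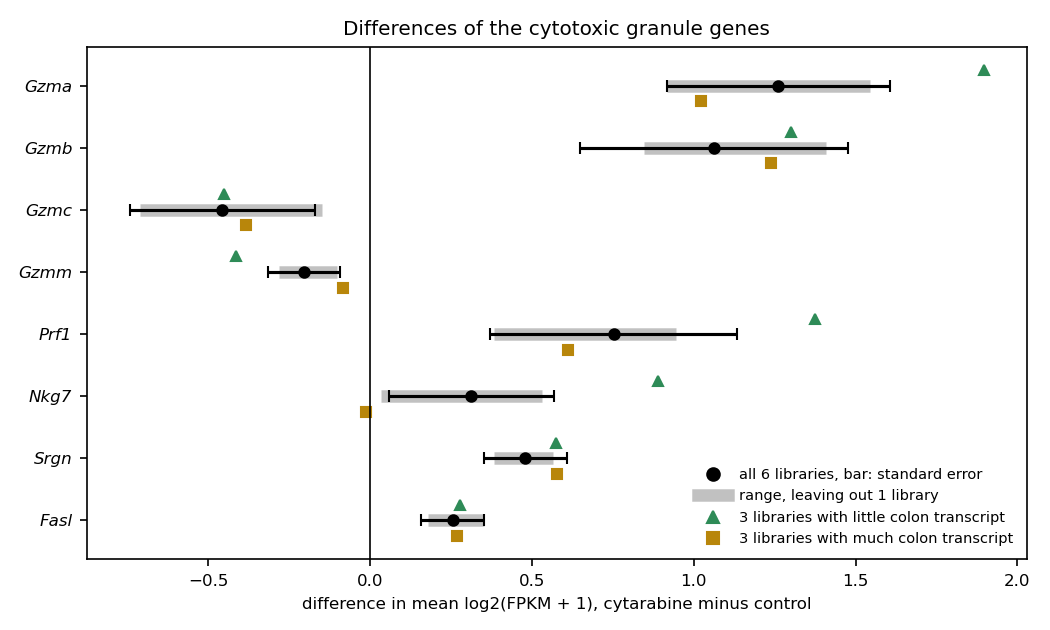
Difference in mean log2(FPKM + 1), cytarabine minus control, for the 8 members: black points are all 6 libraries with the standard error, grey bars the range when 1 library is left out, green triangles and gold squares the libraries with little and with much colon transcript. Gzma, Gzmb, Prf1, Srgn and Fasl lay above 0 throughout, Gzmc and Gzmm below, and Nkg7 spanned values from -0.011 to 0.89.

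Across the 6 libraries, the 5 members that reached the mean of 1 FPKM were correlated pairwise. The Pearson r of log2(FPKM + 1) was 0.936 for Gzma and Prf1, 0.930 for Gzma and Srgn, 0.852 for Gzmb and Prf1 and 0.591 for Nkg7 and Srgn. These are descriptions over 6 points that share the library and the group difference. A shared group difference by itself raises r, and the members were selected on it, so these values add no support. The genes most like each member were sought among 8801 non-member genes whose mean reached 5 FPKM. Genes picked this way over 6 libraries follow the library order and group gap of the member by that choice. For Gzma they were Eed, a Polycomb subunit (r = 0.996), and Cd274, which encodes the checkpoint ligand PD-L1 (r = 0.996). Cd274 measured 25.2, 17.8 and 14.8 FPKM after cytarabine against 9.25, 10.5 and 9.30 FPKM in controls. For Srgn they were Aida (r = 0.997) and Sh2d1b1, an adaptor of NK cells also known as EAT-2 (r = 0.996). Sh2d1b1 measured 14.6, 11.3 and 9.31 FPKM after cytarabine against 3.94, 5.77 and 6.35 FPKM in controls. For Prf1 they were Tipin (r = 0.985) and Serpinb9, the intracellular inhibitor of granzyme B (r = 0.984). For Gzmb they were Hivep2 (r = 0.993) and 1110008P14Rik (r = 0.990), and for Nkg7 Cdk17 (r = 0.987) and Med29 (r = 0.973).

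The sequence around the starts of Gzma, Gzmb and Prf1 is shown 5′ to 3′ on the gene's strand. These genes were picked for their higher values with cytarabine, and a common regulation was not tested. Each window reaches from upstream of the RefSeq start (GRCm38.p6) to just past it. The windows are chr13:113100932-113101231 on the minus strand for Gzma, chr14:56262285-56262584 on the minus strand for Gzmb and chr10:61297586-61297885 on the plus strand for Prf1. Capitals mark matches, on either strand, to the 7 motifs searched, where matches to different motifs could overlap.
Gzma: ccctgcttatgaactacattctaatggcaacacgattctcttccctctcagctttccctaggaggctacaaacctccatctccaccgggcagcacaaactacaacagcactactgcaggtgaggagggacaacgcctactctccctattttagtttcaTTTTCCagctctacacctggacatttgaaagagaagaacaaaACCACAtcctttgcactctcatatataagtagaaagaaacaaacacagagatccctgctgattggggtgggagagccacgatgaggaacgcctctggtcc
Gzmb: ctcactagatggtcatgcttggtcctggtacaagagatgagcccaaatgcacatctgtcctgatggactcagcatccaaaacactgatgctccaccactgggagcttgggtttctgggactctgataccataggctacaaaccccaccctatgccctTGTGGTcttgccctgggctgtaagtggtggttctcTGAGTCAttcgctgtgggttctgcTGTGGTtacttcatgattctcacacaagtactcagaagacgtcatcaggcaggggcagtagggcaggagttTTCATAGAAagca
Prf1: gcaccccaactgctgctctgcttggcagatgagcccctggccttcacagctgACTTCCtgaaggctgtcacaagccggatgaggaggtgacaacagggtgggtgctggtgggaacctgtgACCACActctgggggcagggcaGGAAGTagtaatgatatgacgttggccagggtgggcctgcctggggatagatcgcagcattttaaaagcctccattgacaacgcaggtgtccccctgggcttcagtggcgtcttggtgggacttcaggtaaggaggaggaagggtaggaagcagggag
The motifs were AP-1 (TGANTCA), the cyclic AMP response element (TGACGTCA), NFAT (GGAAAA), RUNX (TGTGGT), T-box (GGTGTGA), STAT (TTCNNNGAA) and ETS (GGAAGT). A RUNX match lay in all 3 windows, 2 of them in Gzmb, and it was found in 7 of the 12 windows of the 10 members against 16.8% of all 32851 promoter windows. The AP-1 match of Gzmb was the only 1 among the 12 windows, against 7.81% of all. NFAT matches were in 4 of the 12 windows (23.4% of all), ETS in 5 (23.8%), STAT in 4 (8.30%), T-box in 3 (3.98%) and the cyclic AMP response element in 1 (1.79%). A match is a run of letters and was not tied to binding in these cells.

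The genes that load, release and restrain the granules were then examined in 7 lists, which held 68 genes with the other granzymes included. Of these 57 could be tested with limma, which compared log2(FPKM + 1) of the 3 cytarabine and 3 control libraries. No gene of the 11703 tested reached an adjusted p under 0.05 (0% called; the smallest adjusted p was 0.0551), so the lists were read at an unadjusted p under 0.05, which 2038 genes reached. At that level 13 of the 57 were higher and 1 was lower, or 22.8% and 1.75%, against 7.6% higher and 9.81% lower over all genes tested. Their median log2 difference was 0.21. The lists were chosen with earlier results of these data known. These shares, and the counts of single lists below, are therefore descriptions and not read as support for a direction.

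The other granzymes of the cluster on chromosome 14 were at or near 0. Gzme was listed at 0 in 5 libraries and at 0.787 FPKM in control 2, Gzmd was at 0.441 FPKM in control 2 alone, Gzmn was at 0.216 FPKM in control 2 and 0.348 FPKM in control 3 alone, and Gzmf and Gzmg were listed at 0 throughout. Control 2 was also the library with the most Gzmc. Gzmd and Gzme share 5.73% and 4.75% of their 75-base windows with other granzymes, so their values are uncertain. Among 11 genes of granule maturation and content, Ctsw, which encodes cathepsin W of cytotoxic lymphocytes, measured 13.3, 6.63 and 6.99 FPKM after cytarabine against 2.59, 2.51 and 3.63 FPKM in controls. Every cytarabine library was above every control, and cytarabine 1 was the highest, as for Gzma and Prf1. The log2 difference of Ctsw was 1.30 (standard error 0.28, adjusted p = 0.151 from limma). Ctsc, the cathepsin that activates granzymes by removing their propeptide, was the 1 gene lower at an unadjusted p under 0.05. It measured 84.5, 71.1 and 71.8 FPKM after cytarabine against 84.7, 101 and 94.5 FPKM in controls, a log2 difference of -0.30 (standard error 0.10, adjusted p = 0.233 from limma).

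Of 14 exocytosis genes tested, 2 were higher, with a list median of 0.05. Sytl1, a synaptotagmin-like partner of Rab27a, measured 3.81, 10.7 and 10.5 FPKM after cytarabine against 3.75, 3.00 and 2.77 FPKM in controls. Here cytarabine 2 and 3 were high, and cytarabine 1 lay next to control 1. Cytarabine 2, cytarabine 3 and control 1 were the libraries with much colon transcript. The log2 difference of Vamp8, a SNARE of secretory granules, was 0.45 (standard error 0.15, adjusted p = 0.230 from limma), and that of Sytl1 was 1.06 (standard error 0.37, adjusted p = 0.239 from limma). The fusion genes Rab27a, Unc13d, Stx11 and Stxbp2, whose loss causes familial defects of cytotoxicity, had log2 differences of 0.22, 0.13, 0.31 and 0.31 with unadjusted p above 0.05, and were named after their values were seen. Of 5 inhibitors tested, 1 was higher, Serpinb6a, by 0.60 (standard error 0.13, adjusted p = 0.151 from limma), and it was highest in cytarabine 2 and 3, at 185 and 203 FPKM. The part of colon RNA in the values of Sytl1, Vamp8 and Serpinb6a was not tested.

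**Figure D4:**
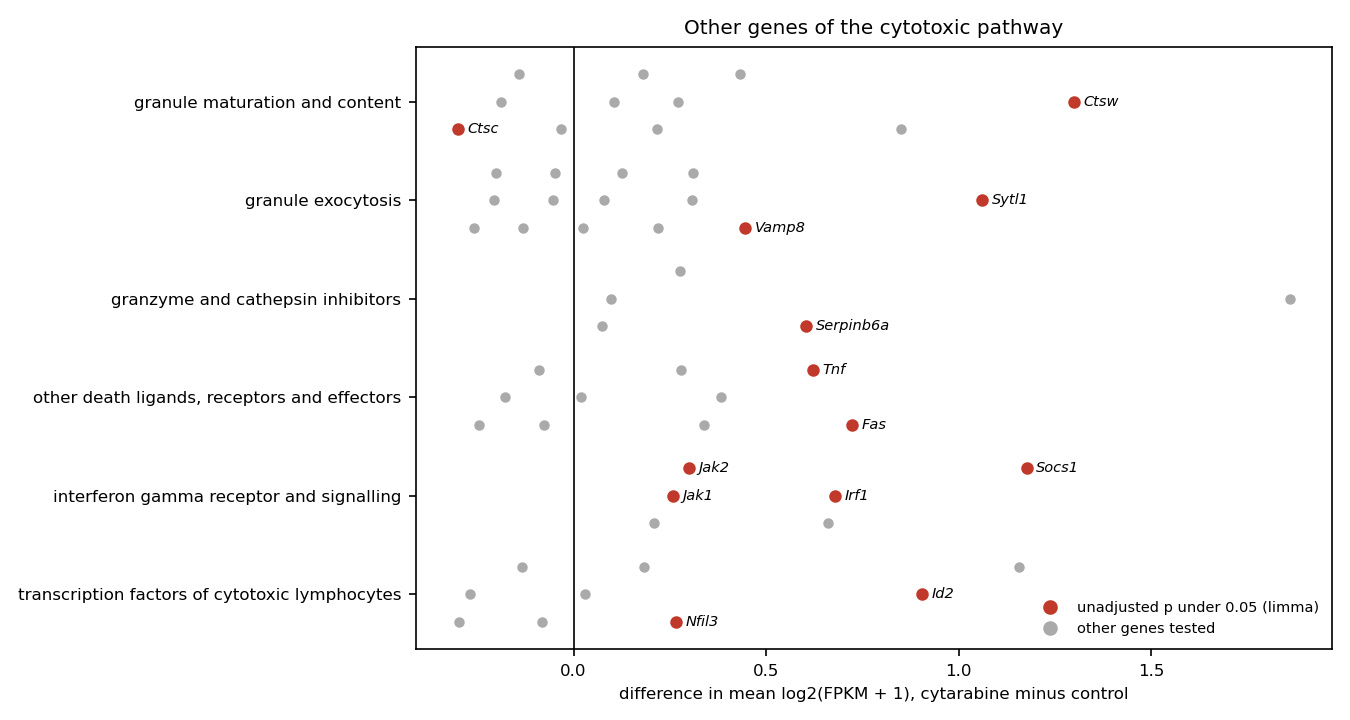
Difference in mean log2(FPKM + 1), cytarabine minus control, for the genes reported here of 6 lists around the cytotoxic granule, with red points for an unadjusted p under 0.05 from limma and vertical offsets within a list only to separate points. Every red point shown except that of Ctsc lies to the right of 0, and 4 of them are in the interferon gamma list.

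Besides Fasl, 11 genes of death ligands, receptors and effectors were tested, of which 3 were higher and none lower, with a median of 0.25. Fas, the receptor of Fas ligand, measured 4.93, 5.59 and 6.32 FPKM after cytarabine against 2.84, 3.88 and 2.39 FPKM in controls, without overlap, a log2 difference of 0.72 (standard error 0.17, adjusted p = 0.166 from limma). Tnf, a cytokine that can also trigger cell death, differed by 0.62 (standard error 0.18, adjusted p = 0.193 from limma).

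Although Ifng was listed at 0, genes of its receptor and signalling were measured, and 4 of 7 were higher, with a median of 0.66. Jak1, the kinase bound to the receptor, measured 95.9, 95.5 and 96.8 FPKM after cytarabine against 78.8, 80.2 and 81.6 FPKM in controls. The spread within each group was small beside the gap, and the log2 difference was 0.26 (standard error 0.048, adjusted p = 0.137 from limma). Irf1, a transcription factor induced by interferons, differed by 0.68 (standard error 0.15, adjusted p = 0.161 from limma). Socs1, the feedback inhibitor of the pathway, measured 20.2, 14.4 and 8.92 FPKM after cytarabine against 6.02, 5.01 and 5.64 FPKM in controls. The cytarabine libraries were all above the controls, in the order seen for Gzma, and the difference was 1.18 (standard error 0.27, adjusted p = 0.166 from limma). Jak2 differed by 0.30 (standard error 0.078, adjusted p = 0.182 from limma). It was named after its values were seen. Type I interferons also signal through Jak1 and induce Irf1 and Socs1.

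**Figure D5:**
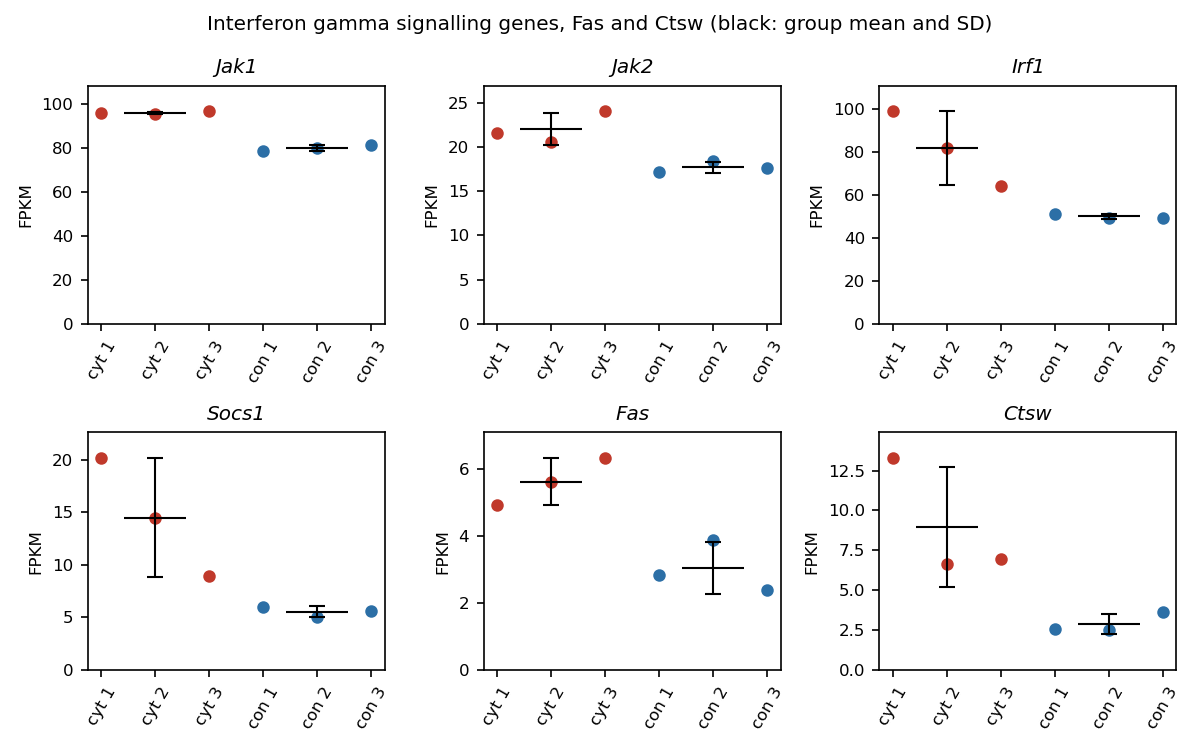
FPKM of 4 genes of interferon gamma signalling, of Fas and of Ctsw in the 6 libraries (cyt, cytarabine; con, control), with black marks for the group mean and SD of 3 mice. The cytarabine points of all 6 genes lie above the control points of the same gene.

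Of the 9 transcription factors of cytotoxic lymphocytes that were tested, 2 were higher, with a median of 0.03. Id2, needed for NK cells, measured 102, 79.7 and 119 FPKM after cytarabine against 43.1, 66.6 and 49.97 FPKM in controls, a difference of 0.90 (standard error 0.21, adjusted p = 0.164 from limma). Nfil3 differed by 0.27 (standard error 0.083, adjusted p = 0.214 from limma). Tbx21 and Eomes, the T-box factors that drive granzyme and perforin genes in lymphocytes, were under 1 FPKM in every library, and Eomes was highest at 0.551 FPKM in cytarabine 1.

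Markers of cells other than the leukemia that hold these granule genes were read beside the members. Of 6 NK cell genes, 5 were under 1 FPKM in every library, with Klra4 listed at 0, and the summed level was 4.30 to 6.02 FPKM with cytarabine and 2.21 to 3.91 FPKM in controls. Most of it was Klrb1c, the NK1.1 antigen, which measured 5.07, 3.57 and 3.72 FPKM after cytarabine against 1.82, 3.00 and 2.00 FPKM in controls. Of the 6 NK cell genes, 2 were higher without overlap, Klrb1c and Eomes, against 9.18% of all genes with a value. The nearest Eomes values were almost level, at 0.3965 FPKM in cytarabine 2 and 0.3960 FPKM in control 2. Cytarabine 1 was the highest for Klrb1c and Eomes, as for Gzma and Prf1, but not for Ncr1, whose groups overlapped. Ncr1, the defining NK receptor, measured 0.121, 0.335 and 0.119 FPKM after cytarabine against 0.111, 0.384 and 0 FPKM in controls. Of 7 T cell genes, 5 were under 1 FPKM in every library, namely Cd4, Cd5, Cd8a, Cd8b1 and Cd247, and the sum was 9.99 to 15.9 FPKM with cytarabine and 5.70 to 13.03 FPKM in controls, mostly Itgae. The part of NK or T cell RNA in the values of Gzma, Gzmb and Prf1 was not tested. Beside Srgn, basophil and mast cell genes summed to 435 to 489 FPKM with cytarabine and 338 to 446 FPKM in controls, nearly all Cpa3. Over the 6 libraries Cpa3 had a mean of 415 FPKM, and the other genes of that list had means of 0.111 to 2.45 FPKM. The sum therefore describes Cpa3 rather than the list. Neutrophil genes summed to 160 to 1302 FPKM with cytarabine and 1286 to 1805 FPKM in controls, with 4 of 6 genes lower without overlap, S100a8 the most abundant, while Srgn was higher. Early myeloid genes, led by Elane, summed to 252 FPKM in cytarabine 1, the library highest in most members, and to 14.9 to 40.1 FPKM in the other 5 libraries. Macrophage genes, led by C1qa, summed to 7.59 to 45.8 FPKM with cytarabine and 7.77 to 131 FPKM in controls. Colon genes, led by Zg16, summed to 162 to 2586 and 12.6 to 1235 FPKM, heart genes, led by Nppa, to 4.74 to 644 and 47.5 to 2359 FPKM, and smooth muscle genes, led by Actg2, to 57.1 to 531 and 6.35 to 361 FPKM. The parts of these cells in the values of the members were not tested.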

How the data were processed

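GFP-positive, CD49b-positive cells of 3 mice given cytarabine and of 3 controls had been sorted and their RNA sequenced as 75-base single-end reads. The authors mapped the reads to mm10 and deposited FPKM per gene for each library. The submitters' processing notes name TopHat2 2.0.13, Bowtie2 2.2.3, SAMtools 0.1.19 and Cufflinks 2.2.1. The gene annotation and options are not given in the sources used here. FPKM are divided by length and library size, so no test on counts was run.

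The sample labels gave the groups and replicate numbers. A pseudocount of 1 was added to the deposited FPKM before taking log2, and 11703 of 23284 genes, those whose mean reached 1 FPKM, entered a two-sided test by limma 3.58.1 (R 4.3.3, eBayes with an intensity trend), adjusted after Benjamini-Hochberg. That step had been tested on simulated data. Standard errors of members under that mean come from a fit without the filter. P-values set the group difference against the spread within the groups of these 6 mice only. Each gene's variance was drawn by eBayes toward the trend over all genes tested.

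Library totals were inferred from low FPKM values of single-transcript genes in GENCODE M21, assuming fragments of 200 bases. At these totals 67.5% to 72.8% of the low values lay within 0.1 of a whole number of reads, so inferred reads are approximate. Intervals cover counting error only.

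The members and gene lists were chosen with earlier results of these data known. Named were all members, up to 3 genes of each list and direction with the smallest unadjusted p under 0.05 (in a list without any, the gene with the highest mean), the 2 genes most like each member that entered the test, and the highest marker of each cell type. Itga2, Ptprc, Klra4, Ncr1, Eomes, Tbx21, the T cell genes other than Itgae and the other genes of the granzyme cluster were named after their values were seen. Alternatives were another pseudocount (0.1), other filters, 3 rescalings, other eBayes settings, the replicate block, leaving out each library, and values within the sides of the colon division. Some single genes are not reported here.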

Additional observations from a re-analysis of the deposited data

How the results depend on the processing

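Of the log2 differences of the members under the alternatives, 102 moved by less than the spread between mice, 11 moved by more and 1 changed sign, which was that of Nkg7 at -0.011 within the libraries with much colon transcript. The 102 include values under the other filters and the replicate block, which cannot change the log2 difference of a member. They also include a rescaling by factors of 1.004 to 1.006, which could hardly change it. With a mean of at least 5 FPKM required, only Nkg7 and Srgn were left, and the 6 members above 0 became 2, because fewer genes were tested. A pseudocount of 0.1 gave larger log2 differences for low members, 1.74 for Gzma, 2.42 for Gzmb, 1.27 for Prf1 and 0.97 for Fasl. Of the values of named pathway genes, 192 kept their direction and side of the threshold and 17 no longer passed it, all of Ctsc, Vamp8, Sytl1 or Nfil3. With an adjusted p under 0.05 from limma, 0 genes passed, 2038 having an unadjusted p under 0.05. There was 1 such gene with the robust trend, 2 without the trend and 1 with a pseudocount of 0.1, and from 0 to 5 with 1 library left out. The 2038 genes became 994 with the replicate block, and ranged from 1179 without control 3 to 4075 without cytarabine 1. Same-numbered libraries are different mice whose deviations correlated at -0.709, -0.247 and -0.594. The highest values were 0.628 for cytarabine 3 with control 1 and 0.622 for cytarabine 1 with control 3. Each of these pairs lies on the same side of the colon division. The values therefore cannot decide whether same-numbered mice were handled together. The 1 pathway gene lower became 2 with quantile normalization and 0 with the replicate block, and ranged from 0 to 4 with 1 library left out, while the 13 higher ranged from 11 to 19. The causes were not tested. Depth limits Gzmc, Gzmm and Fasl, with at most 12 inferred reads per library, where a few reads decide whether groups overlap.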
